A study of Mus musculus with 9 samples.

Results

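Numb and 9 genes of the Notch pathway, 10 of the 24532 genes listed for every mouse, are described here in mouse medial prefrontal cortex. They were selected by gene symbol: Numb and its paralogue Numbl, the receptors Notch1 and Notch2, the ligands Dll1 and Jag1, the DNA-binding effector Rbpj, and the transcriptional targets Hes1, Hes5 and Hey1. The choice was made because the FPKM of Numb, its fragment count scaled for transcript length and library size, lay at separate levels in different mice. The FPKM of Numb is therefore given as a description, without a test, and the question put to the other members was whether they followed it. All 10 members passed the filter on low values, which required a mean of at least 30 reads per mouse and kept 14370 genes.

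The study sequenced mRNA from the prefrontal cortex of 9 male mice, with 1 library per mouse and 3 mice in each of 3 groups. The CT group was wild-type and unstressed, the WT_ST group was wild-type and stressed, and the KO_ST group was homozygous for a knockout of Fkbp5 (Fkbp5-/-), which encodes a co-chaperone of the glucocorticoid receptor, and stressed. Stress was restraint for 6 h per day over 3 weeks. All mice had the C57BL/6 strain label and an age label of 11 weeks, whereas the methods name C57BL/6J mice aged 8 weeks. CT mice also went without food and water during the hours of restraint. The knockout line had been backcrossed to C57BL/6J, and mice of both genotypes came from matings of heterozygotes, so alleles that stayed linked to the targeted Fkbp5 cannot be told apart from its loss. No unstressed knockout was among the groups, so the effect of the genotype without stress cannot be told apart from its effect under stress. Each stressed group was compared with CT, and the stressed groups with each other. Both comparisons with CT share the same CT mice.

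Notch receptors and their ligands are membrane proteins of neighbouring cells. Binding leads to cleavage of the receptor by gamma-secretase, and the released intracellular domain joins RBPJ on DNA and switches on repressors of the HES and HEY families. Numb is a membrane-associated adaptor protein of the endocytic machinery that is best known for holding down Notch in one daughter of a dividing neural progenitor, and in the adult brain the pathway is used in astrocytes, blood vessels, remaining stem cells and neurons. The libraries are bulk tissue, so fewer cells of a type and less RNA per cell cannot be told apart.

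RefSeq promoters, taken as the 250 bases before a transcription start in GRCm38.p6, were found for 8 of the 10 members, in 12 windows. Hes1 and Hey1 had no entry. The core of the RBPJ binding motif, TGGGAA, was searched on both strands without mismatch, as was the N-box CACNAG, which HES proteins bind. The RBPJ core was present in 21.6% of all 32851 promoters and 2 or more copies in 2.77%. Of the members, Hes5 and Rbpj had it. The windows of Hes5, of the more upstream of 2 Rbpj windows, and of the most upstream Numb start are shown because Hes5 is the target whose level differed from CT in both stressed groups, Rbpj encodes the factor that binds the motif, and Numb is the gene at separate levels. Each is read 5′ to 3′ on the strand of the gene, and capitals mark the RBPJ core or its reverse complement TTCCCA. The gene record of Hes5 starts upstream of its window, while the promoter table places its start just after it. The windows lie at chr4:154960673-154960922 on the plus strand for Hes5, at chr5:53590096-53590345 on the plus strand for Rbpj and at chr12:83921935-83922184 on the minus strand for Numb.
Hes5: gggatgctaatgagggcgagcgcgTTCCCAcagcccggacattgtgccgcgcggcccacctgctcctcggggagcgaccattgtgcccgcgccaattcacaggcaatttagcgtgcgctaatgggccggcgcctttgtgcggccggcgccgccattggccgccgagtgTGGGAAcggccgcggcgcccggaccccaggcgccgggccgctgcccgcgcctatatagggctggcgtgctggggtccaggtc
Rbpj: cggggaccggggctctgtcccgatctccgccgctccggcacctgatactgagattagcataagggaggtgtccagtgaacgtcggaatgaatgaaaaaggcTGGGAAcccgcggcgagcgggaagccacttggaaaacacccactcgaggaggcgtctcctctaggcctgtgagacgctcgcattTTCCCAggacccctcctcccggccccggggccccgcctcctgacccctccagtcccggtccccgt
Numb: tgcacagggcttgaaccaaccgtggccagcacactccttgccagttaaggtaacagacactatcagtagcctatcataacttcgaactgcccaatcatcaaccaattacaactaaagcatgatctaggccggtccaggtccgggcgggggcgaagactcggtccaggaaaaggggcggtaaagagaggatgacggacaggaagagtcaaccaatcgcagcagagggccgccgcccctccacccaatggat

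In the Hes5 window the motif copies began 226 and 82 bases before the start, on opposite strands. In the Rbpj window they began 149 and 65 bases before it, also on opposite strands, and the second Rbpj window, which overlaps the first, held 1 copy. The 3 Numb windows and those of Numbl, Notch1, Notch2, Dll1 and Jag1 held no RBPJ core. An N-box was present in 36.7% of all promoters, and among the members in the window of Notch1, in that of Notch2 and in 1 of the 3 Numb windows, none of which held an RBPJ core. A match of letters is a description of the window and not a measured binding site.

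Libraries held from 43778471 to 61150128 reads on genes, and over the tested genes the mice correlated with each other at 0.987 to 0.994. Fkbp5 was read at 7.61, 6.46 and 7.28 FPKM in CT, at 9.83, 9.47 and 10.3 in WT_ST and at 3.59, 4.69 and 4.45 in KO_ST, lowest in the mice labelled as knockout. Marker lists were summed in FPKM. Neuron markers gave the highest sums (2664 to 3439 over all mice), followed by those of astrocytes (727 to 876) and oligodendrocytes (477 to 913), whose ranges overlapped, whereas ependymal and choroid plexus markers summed to 1.48 to 3.16, with 5 of 8 at 0 in at least 1 mouse. Markers of striatum, which borders the dissected region, summed to 68.7 to 97.3 in CT, 87.8 to 112 in WT_ST and 81.5 to 102 in KO_ST, and 3 of the 8 were higher in WT_ST and 2 in KO_ST than in CT, with an unadjusted p under 0.05 and a fold over 1.2. Fkbp5 lies on chromosome 17, as does Dll1 (chr17:15367354-15376932 in GRCm38), whose start is 13.0 Mb away.

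The order of the levels separated the members into tiers. Over the 9 mice the median FPKM was 43.3 for Numbl and 29.4 for Hey1, a repressor also expressed in endothelial cells. It was 19.1 for Numb, 6.58 for Hes5, 6.44 for Rbpj, 4.09 for Notch1 and 3.58 for Hes1. The lowest medians were 1.63 for Notch2, 1.22 for Dll1 and 1.01 for Jag1. Neighbours in this order did not overlap over the mice except Numb with Hes5, Hes5 with Rbpj, Notch1 with Hes1, and Dll1 with Jag1. Numb was above Hes5 in 7 of 9 mice, and Hes5 above Rbpj in 5 of 9. The number of reads behind a value ranged from 166 for Dll1 to 7411 for Numbl.

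**Figure D1:**
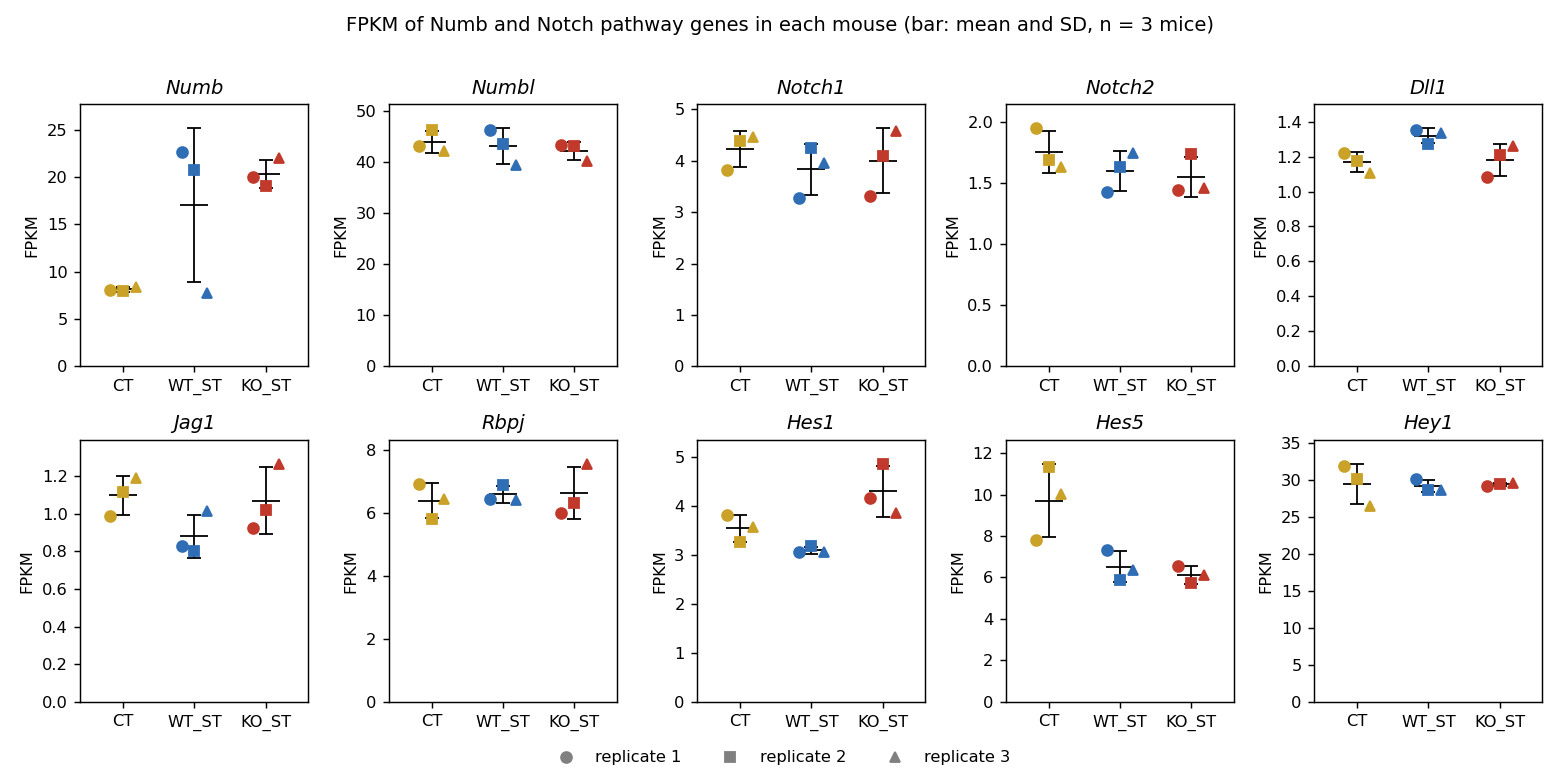
FPKM of each of the 10 genes in every mouse, on a linear axis from 0, by group (CT, WT_ST, KO_ST), with symbols for the replicate and a bar for the mean and SD of 3 mice. Numb lies near 8 or near 20 FPKM, with WT_ST replicate 3 at 7.72 beside the CT mice, Hes5 is highest in the CT mice, and Hes1 is highest in the KO_ST mice.

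Numb (chr12:83794034-83921942) was at 8.06, 7.93 and 8.40 FPKM in the CT mice. It was at 22.7, 20.7 and 7.72 FPKM in WT_ST and at 19.98, 19.1 and 21.98 FPKM in KO_ST. The CT mice and WT_ST replicate 3 thus formed a lower level and the other 5 mice an upper one, and WT_ST was the only group with mice at both. The highest mouse of the lower level was at 8.40 and the lowest of the upper level at 19.1, a step of 2.27-fold, while mice differed by at most 1.09-fold within the lower level and 1.19-fold within the upper one. On the log2 scale the step was 1.14 and took up 79.6% of the range of Numb over the mice. Among all tested genes, 0.605% had a step that filled as large a share of their range and 0.598% a step as large, and 41 genes, Numb among them, had both. Numb was chosen for its separate levels, so these shares are description only. The same holds for the shares given below for its range and within WT_ST. The raw reads on Numb showed the same mice apart, with 1743, 1513 and 1475 in CT, 4042, 3621 and 1212 in WT_ST, and 3164, 3160 and 4062 in KO_ST.

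As group means, Numb was at 8.13 ± 0.244 FPKM in CT, 17.0 ± 8.12 in WT_ST and 20.3 ± 1.496 in KO_ST (SD, n = 3 each). On quantile-normalized log2(FPKM + 1), WT_ST was 0.86 and KO_ST 1.25 above CT, and KO_ST 0.38 above WT_ST. The last difference was -0.07 without WT_ST replicate 3, and WT_ST against CT was then 1.32, so both rest on where that mouse lies. The KO_ST mice did not overlap the CT mice, and the WT_ST mice spanned both.

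The deposited annotation listed 6 transcripts of Numb but 1 value per gene, so isoforms were not measured apart. The transcript length implied by the reads and the FPKM of Numb was 3532, 3592 and 3593 bases in CT, 3620, 3617 and 3543 in WT_ST, and 3624, 3616 and 3608 in KO_ST. The 4 mice of the lower level had the 4 shortest lengths, and the whole span was 2.61%. A span of at least this size was found in 12.9% of tested genes. Among the other members the span was at most 0.97%, for Rbpj, which has 4 listed transcripts. In CPM, reads scaled to the library size alone, the mice stood at 28.5, 28.5 and 30.1 in CT, at 82.1, 74.8 and 27.3 in WT_ST, and at 72.3, 69.2 and 79.3 in KO_ST.

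Of the genes near Numb on chromosome 12, 5 are described here, and they had no step at the same mice. Rbm25, 2410016O06Rik, Acot2 and Acot1 differed by 1.16-fold to 1.31-fold between their highest and lowest mice. Papln, which encodes an extracellular matrix protein, shares 1107 bases with the end of Numb on the opposite strand and varied by 2.05-fold at 146 to 300 reads, with its lowest mouse, 0.66 FPKM, at the upper level of Numb. The libraries were made with a stranded kit, but whether reads were counted by strand was not given in the sources used here, so reads in the shared bases cannot be assigned with certainty.

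**Figure D2:**
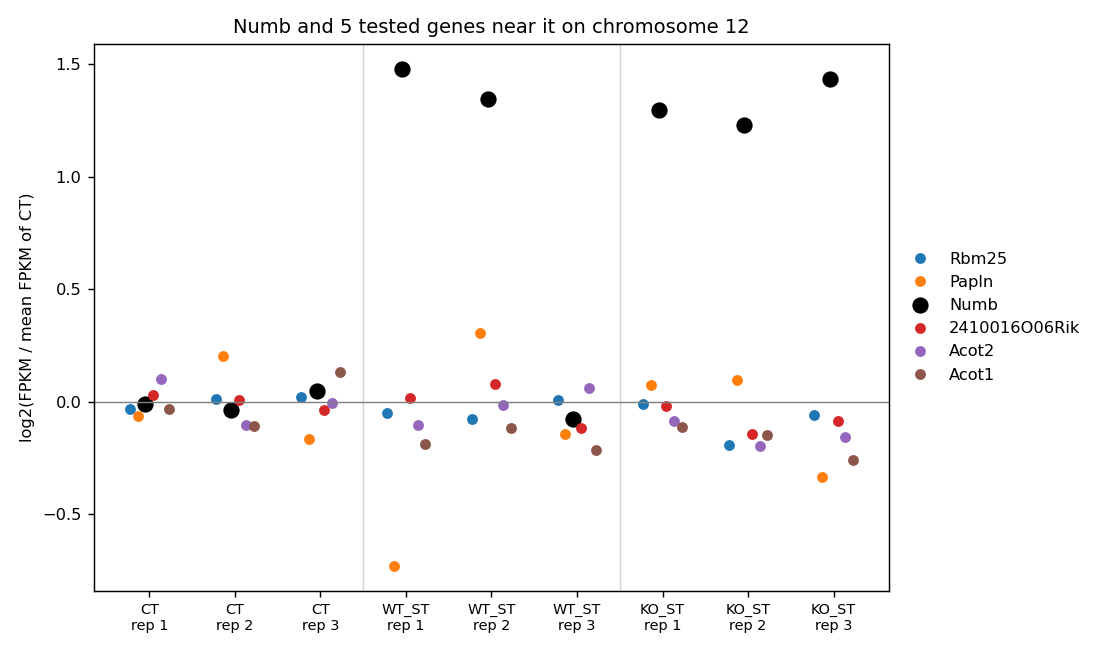
log2 of FPKM over the mean FPKM of CT, for Numb (black) and 5 tested genes near it on chromosome 12 (colours), in each mouse, with points offset sideways so that none is hidden. Numb lies between 1.2 and 1.5 in 5 stressed mice and near 0 in the other 4, while the neighbours stay near 0 apart from Papln, a gene of few reads.

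None of the other 9 members divided the mice as Numb did. Their largest steps between neighbouring mice were 0.06 to 0.31 on the log2 scale and filled 24.4% to 48.1% of their ranges. The largest of them, in Hes5, set 2 CT mice above the other 7 mice. From its highest to its lowest mouse Numb varied 2.94-fold, more than 94.8% of tested genes. Hes5 varied 1.98-fold, Hes1 1.59-fold and Jag1 1.58-fold, while Numbl at 1.18-fold and Hey1 at 1.202-fold varied less than most tested genes.

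WT_ST allowed a comparison of mice at different Numb levels under the same label, with 1 mouse against 2 and no test. On quantile-normalized log2(FPKM + 1), replicate 3 was 1.38 below the mean of replicates 1 and 2 for Numb, a distance reached by 0.174% of tested genes. Numbl, at 46.4, 43.7 and 39.4 FPKM, was 0.18 below, a distance reached by 17.0% of tested genes. Jag1 was 0.14 and Notch2 0.11 above, and each of the other 6 members lay within 0.07. For Notch1, Dll1 and Hes5, replicate 3 fell between the other mice of the group.

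Over all 9 mice, the Pearson correlation of log2 values with Numb was 0.42 for Rbpj, 0.34 for Hes1, 0.29 for Dll1, 0.17 for Numbl and 0.07 for Hey1. It was -0.20 for Notch1, -0.33 for Jag1, -0.62 for Notch2 and -0.64 for Hes5. These values describe 9 mice at separate levels, share the group structure of the study and carry no test. By rank of FPKM, WT_ST replicate 3 was the lowest of all mice for Numb and Numbl alike and the lowest for Hes1, but the second highest for Dll1 and Notch2. The tested genes with the highest r with Numb were Pcdhb17 (r = 0.96), Btbd11 (0.95), Fndc5 (0.93), Tomm34 (0.92) and Astn2 (0.92). Those with the lowest were A930012L18Rik (-0.94), Syt16 (-0.93) and Sycp2 (-0.92). These genes were picked as the extremes of r among all tested genes, and no relation with Numb was tested. Their largest steps were 0.02 to 0.18 on the log2 scale, against 1.14 for Numb. Syt16 alone among them lies on chromosome 12, as Numb does. It was at 41.9 to 42.7 FPKM in the mice of the lower Numb level and at 38.1 to 40.4 in the others.

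Numbl (chr7:27258438-27282150), the paralogue of Numb with overlapping functions in neural progenitors, was the member with the highest level. It was at 43.3, 46.3 and 42.2 FPKM in CT, 46.4, 43.7 and 39.4 in WT_ST, and 43.4, 43.2 and 40.3 in KO_ST. The groups overlapped, and differences between them were at most 0.05 on the log2 scale (adjusted p between 0.793 and 0.972 from limma).

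Of the 9 members other than Numb, 1 met the criterion of an unadjusted p under 0.05 with a fold change over 1.2 in WT_ST against CT, a criterion met by 2.47% of tested genes (1.16% higher and 1.32% lower). In KO_ST against CT it was again 1, where 3.56% of tested genes met the criterion (1.54% higher and 2.03% lower). In KO_ST against WT_ST it was also 1, where 1.997% met it (0.946% higher and 1.05% lower). With 9 members, 1 call is the smallest count above 0. The genes were Hes5, lower in both stressed groups, and Hes1, higher in KO_ST than in WT_ST. At a Benjamini-Hochberg adjusted p under 0.05 over all tested genes, 0 of the 9 were called in any comparison by limma or by edgeR, where limma called 0.0348%, 0.0626% and 0.153% of tested genes. DESeq2 on the reads called 0, 1 and 0 of the 9 at that threshold, the 1 being Hes5 in KO_ST against CT, in fits where 72, 113 and 76 of all tested genes passed it. By limma 1, 2 and 1 of the 9 had an unadjusted p under 0.05, against 7.86%, 9.46% and 5.82% of tested genes. Groups did not overlap for 3, 2 and 2 of the 9 members, against 14.0%, 16.5% and 11.1% of tested genes. The median log2 fold change of the 9 was -0.06, 0.00 and 0.02, beside medians of all tested genes within 0.01 of 0.

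**Figure D3:**
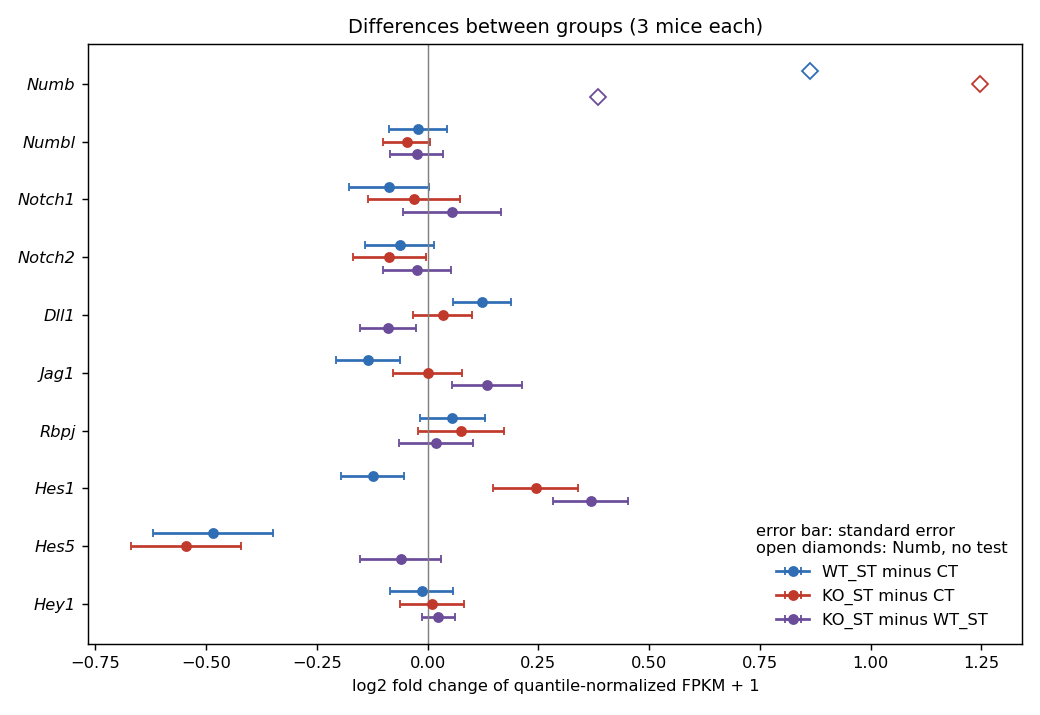
log2 fold change of quantile-normalized FPKM + 1 for each of the 10 genes in the 3 comparisons, with 3 mice per group. Filled points carry standard errors from limma and open diamonds mark Numb, which was not tested; Hes5 lies below 0 in both comparisons with CT, at -0.49 and -0.55, and Hes1 above 0 in KO_ST against WT_ST, at 0.37.

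Hes5 (chr4:154960626-154962372) encodes a basic helix-loop-helix repressor that is a classical direct target of Notch, expressed in neural stem cells and astrocytes. It was at 7.80, 11.3 and 10.03 FPKM in CT, from 622 to 784 reads. It was at 7.34, 5.89 and 6.35 FPKM in WT_ST and at 6.58, 5.71 and 6.13 in KO_ST, from 342 to 471 reads. All 6 stressed mice lay below all CT mice, although CT replicate 1 at 7.80 was close to WT_ST replicate 1 at 7.34. Mean levels were 9.72 ± 1.78, 6.53 ± 0.739 and 6.14 ± 0.433 FPKM (SD, n = 3 each). Hes5 fell by 0.49 on the log2 scale in WT_ST (SE 0.135, adjusted p = 0.630 from limma) and by 0.55 in KO_ST (SE 0.124, adjusted p = 0.458 from limma). Both comparisons rest on the same CT mice. Leaving out each mouse in turn, the difference from CT stayed between -0.62 and -0.38 for WT_ST and between -0.68 and -0.44 for KO_ST, and edgeR on the reads gave -0.56 and -0.64. DESeq2 on the reads gave the same sizes, with an adjusted p of 0.111 in WT_ST and 0.0198 in KO_ST. The adjusted p from edgeR was 0.643 in WT_ST and 0.484 in KO_ST. On simulated counts with 3 mice per group, DESeq2 made more false calls than limma or edgeR. The stressed groups overlapped each other and differed by -0.06 (SE 0.0917, adjusted p = 0.957 from limma).

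Hes5 did not follow the Numb levels within WT_ST, where replicate 3, at the lower Numb level of the CT mice, had 6.35 FPKM of Hes5, between the other mice of its group and below every CT mouse. Cell-type markers moved in the same comparisons. Summed astrocyte markers were 810 to 876 FPKM in CT, 727 to 763 in WT_ST and 746 to 858 in KO_ST, with 2 of 10 markers lower by the same criterion in WT_ST and 0 in KO_ST. Summed oligodendrocyte precursor markers were 38.4 to 52.6, 35.5 to 41.3 and 34.2 to 40.6, with 1 of 6 lower in each. Summed microglia markers were 190 to 240, 152 to 170 and 86.3 to 184, with 8 and 7 of 10 lower, and summed neuron markers were 2664 to 3076, 3185 to 3439 and 3255 to 3386, with 0 of 8 called. Summed endothelial markers were 108 to 118, 107 to 117 and 99.3 to 122, with 1 and 2 of 10 lower, and summed neuroblast markers were 16.8 to 19.4, 17.1 to 22.2 and 17.7 to 18.2, with 2 of 8 higher in WT_ST and 0 in KO_ST. Of 8 oligodendrocyte markers, 8 had a higher mean in WT_ST and 7 in KO_ST, with 0 called. Their sums were 477 to 913, 514 to 814 and 551 to 721. Of 8 striatum markers, 8 had a higher mean in WT_ST and 7 in KO_ST, with 3 and 2 higher by the criterion. The part of these cell types and of striatum in the level of Hes5 was not tested. The genes most like Hes5 over the 9 mice were Morn4 (r = 0.96), Gm10638 (0.96) and Jph4 (0.95). They were picked as the highest r among all tested genes, and no relation with Hes5 was tested.

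Hes1 (chr16:30065357-30067796), a related Notch-responsive repressor that other signals also induce, moved differently. It was at 3.82, 3.27 and 3.58 FPKM in CT, 3.06, 3.18 and 3.06 in WT_ST, and 4.17, 4.87 and 3.87 in KO_ST, from 202 to 347 reads. Every WT_ST mouse lay below every CT mouse and every KO_ST mouse above them, by narrow margins at both borders. KO_ST was 0.37 above WT_ST on the log2 scale (SE 0.0855, adjusted p = 0.590 from limma), and this difference met the unadjusted criterion under every alternative, from 0.29 to 0.43 with 1 mouse left out. Against CT, KO_ST was 0.24 higher (SE 0.0957, adjusted p = 0.501 from limma), a 1.18-fold difference below the criterion although its unadjusted p was under 0.05, and WT_ST differed by -0.12 (SE 0.0707, adjusted p = 0.694 from limma). Between the stressed groups, 9 of 10 astrocyte markers had a higher mean in KO_ST, with 3 of the 10 at an unadjusted p under 0.05 and 3 without overlap, but 0 met the criterion. Their summed level was 727 to 763 FPKM in WT_ST and 746 to 858 in KO_ST. Of 10 microglia markers 9 had a lower mean in KO_ST, with 1 meeting the criterion, and their sum was 152 to 170 against 86.3 to 184 FPKM. Of 8 striatum markers 1 was higher and 2 were lower by the criterion, with 3 without overlap, and their sum was 87.8 to 112 against 81.5 to 102 FPKM. All 8 oligodendrocyte markers and 7 of 8 neuroblast markers had a lower mean in KO_ST, with 0 meeting the criterion. Their sums were 514 to 814 against 551 to 721 FPKM and 17.1 to 22.2 against 17.7 to 18.2 FPKM. In the lists of endothelial and mural cells 1 of 10 was lower and 1 of 8 higher by the criterion, and 0 were called among neuron and oligodendrocyte precursor markers. The part of these cell types and of striatum in the level of Hes1 was not tested.

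Hey1 (chr3:8663359-8667038) differed between groups by less than the spread of its mice. It was at 31.8, 30.1 and 26.5 FPKM in CT, 30.1, 28.7 and 28.7 in WT_ST, and 29.1, 29.4 and 29.6 in KO_ST. The 3 targets among the members thus had separate patterns, with Hes5 lower in both stressed groups, Hes1 higher in KO_ST than in WT_ST, and differences of 0.02 or less on the log2 scale for Hey1 (adjusted p between 0.959 and 0.979 from limma).

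Of the receptors, Notch1 (chr2:26457902-26503822) was at 3.82, 4.38 and 4.47 FPKM in CT, 3.28, 4.26 and 3.96 in WT_ST, and 3.32, 4.09 and 4.58 in KO_ST. Notch2 (chr3:98013538-98150367) was at 1.95, 1.69 and 1.63 FPKM in CT, 1.43, 1.63 and 1.75 in WT_ST, and 1.45, 1.74 and 1.46 in KO_ST. The groups overlapped for both receptors in every comparison, with differences between -0.09 and 0.06 on the log2 scale. For Notch1 the lowest mice of the stressed groups were replicate 1 of each, at 3.28 and 3.32 FPKM.

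Of the ligands, Dll1 was at 1.22, 1.17 and 1.11 FPKM in CT, 1.35, 1.27 and 1.33 in WT_ST, and 1.08, 1.21 and 1.26 in KO_ST, from 166 to 263 reads. The WT_ST mice lay above all others, by 0.12 over CT (SE 0.0650, adjusted p = 0.679 from limma), a difference that did not meet the criterion, and KO_ST against WT_ST was -0.09 (SE 0.0623, adjusted p = 0.940 from limma). Jag1 (chr2:137081451-137116520) was at 0.99, 1.12 and 1.19 FPKM in CT, 0.83, 0.80 and 1.01 in WT_ST, and 0.92, 1.02 and 1.27 in KO_ST. Its groups overlapped, with -0.13 in WT_ST against CT (SE 0.0723, adjusted p = 0.679 from limma) and 0.14 in KO_ST against WT_ST (SE 0.0790, adjusted p = 0.907 from limma).

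Rbpj (chr5:53555779-53657445), through which all Notch receptors act on transcription, was at 6.93, 5.82 and 6.44 FPKM in CT, 6.46, 6.91 and 6.43 in WT_ST, and 6.00, 6.32 and 7.58 in KO_ST. Its groups overlapped and differed by 0.02 to 0.08 on the log2 scale. Relations of Notch1, Notch2 and Rbpj with Hes1, Hes5 and Hey1 were tested over the 9 mice, 9 relations in all. Pearson's r ranged from -0.57 to 0.42, and none passed the threshold. The relation with the smallest p was that of Rbpj with Hes5, negative at r = -0.57 (two-sided exact permutation p = 0.114, adjusted p = 0.945 over the 9 relations), with Spearman's rho of -0.47 (exact permutation p = 0.213, adjusted p = 1). Without the 2 mice farthest from the median of Rbpj, r was -0.17 (exact permutation p = 0.740), and within groups, after subtracting group means, it was -0.59. After subtracting group means, r over the 9 relations ranged from -0.68 to 0.69. Notch2 moved most, from 0.12 to 0.69 with Hes1 (two-sided exact permutation p = 0.0382, adjusted p = 0.211 over the 9 relations) and from 0.08 to -0.68 with Hes5 (two-sided exact permutation p = 0.0468, adjusted p = 0.211), and none passed the threshold after adjustment.

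The rest of the pathway was examined over a list of 58 further genes, of which 55 passed the filter. Hes2 had 0 reads in all mice and Hes3 and Hes7 stayed below the filter. In WT_ST against CT 1 of the 55 was higher and 0 lower, in KO_ST against CT 0 were called, and in KO_ST against WT_ST 1 was higher and 0 lower. By edgeR the same criterion was met by 0, 0 and 1, and no gene of the list passed an adjusted p of 0.05 with limma, edgeR or DESeq2, while 4, 2 and 4 had an unadjusted p under 0.05 in limma. As shares these counts lie near or below those of all tested genes. Median log2 fold changes of the list were within 0.02 of 0 in each comparison, and groups did not overlap for 7, 5 and 7 of the 55 genes, near or below the 14.0%, 16.5% and 11.1% of all tested genes.

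**Figure D4:**
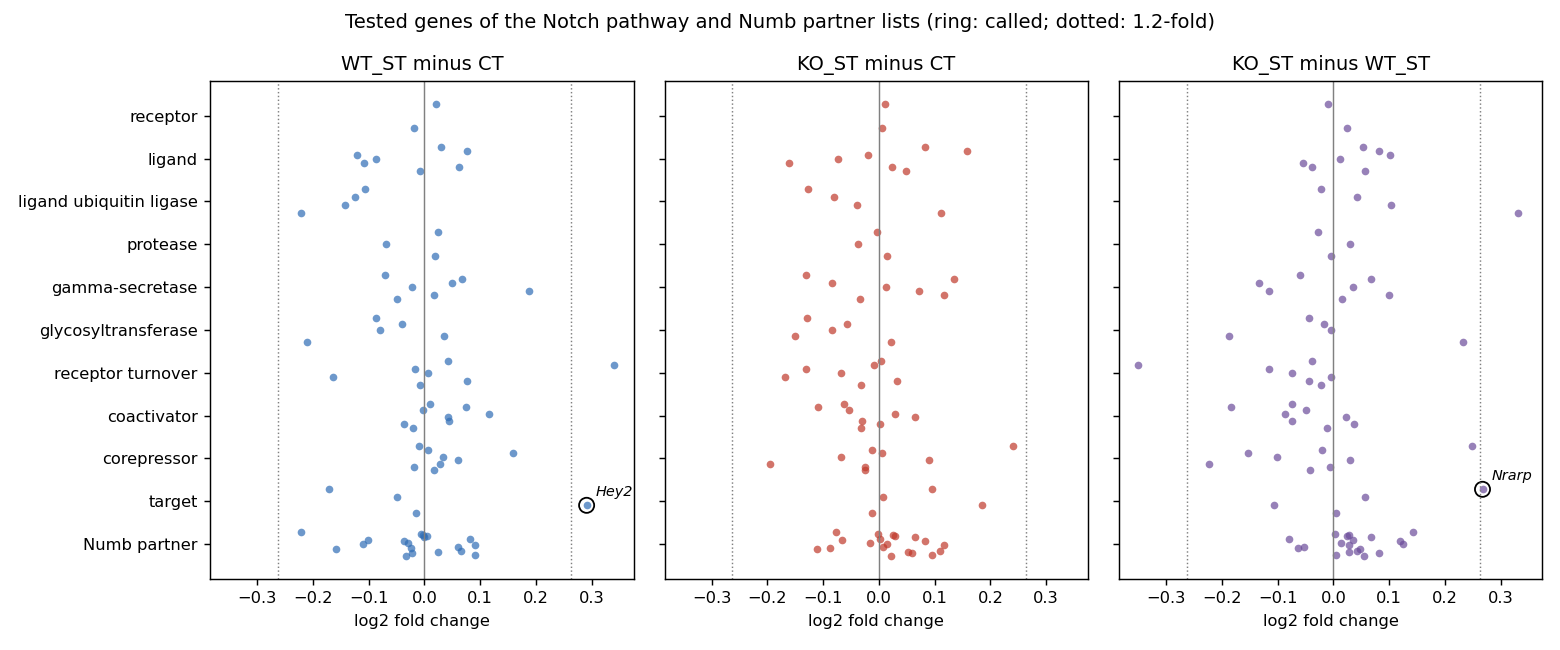
log2 fold change of the tested genes of the Notch pathway list, by role, and of the Numb partner list, in the 3 comparisons. Dotted lines mark 1.2-fold, and rings mark the genes that also had an unadjusted p under 0.05, which were Hey2 in WT_ST against CT, at 0.29, and Nrarp in KO_ST against WT_ST, at 0.27.

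The genes that met the criterion were both targets of the pathway. Hey2, a repressor related to Hey1, was at 1.44, 1.01 and 1.47 FPKM in CT, 1.73, 2.04 and 1.51 in WT_ST, and 1.42, 1.56 and 1.74 in KO_ST. It rose by 0.29 on the log2 scale in WT_ST against CT (SE 0.103, adjusted p = 0.635 from limma), where the groups did not overlap, but edgeR on the reads did not call it. The call was also lost without quantile normalization, with the replicate block and in 3 of 6 fits with 1 mouse left out. In the same comparison 3 of 8 striatum and 2 of 8 neuroblast markers were higher and 8 of 10 microglia markers lower by the criterion, and their part in the level of Hey2 was not tested. Nrarp, a target that feeds back to limit Notch signalling, was at 6.27, 6.12 and 6.74 FPKM in CT, 5.08, 5.90 and 5.39 in WT_ST, and 6.78, 6.17 and 7.17 in KO_ST. It rose by 0.27 in KO_ST against WT_ST (SE 0.0731, adjusted p = 0.690 from limma), and WT_ST mice were the lowest, as they were for Hes1. The call of Nrarp was lost without quantile normalization and in 4 of 6 fits with 1 mouse left out, where the difference came under 1.2-fold. Cell-type markers moved in this comparison as given for Hes1, and their part in the level of Nrarp was not tested. Against CT the Nrarp level in WT_ST was at -0.17 (SE 0.0686, adjusted p = 0.635 from limma), with an unadjusted p under 0.05 but under 1.2-fold. Hes6 and Heyl, further members of the families, differed by at most 0.06 on the log2 scale, with FPKM of 7.16 to 9.41 and 0.49 to 1.01 over the mice.

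The other receptors and ligands did not meet the criterion in any comparison. Notch3, a receptor of mural cells, was at 2.08 to 3.42 FPKM and Notch4, a receptor of endothelial cells, at 0.67 to 1.19. Differences between groups were at most 0.02 on the log2 scale for both. Jag2, at 12.1 to 14.5 FPKM, was the classical ligand with the highest level, above Dll4 at 0.61 to 1.09 and Dll3 at 0.36 to 0.76. Under 1.2-fold but with an unadjusted p under 0.05 were Dtx3 and Mib2 against CT in WT_ST, Dtx3 and Dner against CT in KO_ST, and Ctbp2 and Lfng between the stressed groups.

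Proteins that act with Numb, such as subunits of the AP-2 endocytic adaptor, the LNX ubiquitin ligases and the PAR polarity complex, were covered by 19 genes, which all passed the filter. By limma 0 of them were called in any comparison, with 1, 0 and 0 at an unadjusted p under 0.05, and by edgeR 1, 0 and 0 were called. Their log2 fold changes lay between -0.22 and 0.14. The gene at the lower end was Siah1b, a ubiquitin ligase of the SIAH family, at -0.22 in WT_ST against CT (SE 0.0723, adjusted p = 0.634 from limma), under 1.2-fold.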

How the data were processed

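The authors aligned reads to GRCm38 (mm10) and quantified genes; the submitters' notes name HISAT2 2.1.0, Bowtie2 2.3.4.1 and StringTie 1.3.4d. For each mouse the authors deposited read counts per gene, not normalized, and FPKM, scaled for transcript length and mapped reads. The count settings were not given in the sources used here. Mice were grouped by sample title.

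FPKM was taken as log2 with a pseudocount of 1, quantile normalized over the 9 mice, and tested in R 4.3.3 with limma 3.58.1 (mean-variance trend), using the mice of the groups compared, on 14370 genes with a mean of at least 30 reads. A gene counted as called if its unadjusted p lay below 0.05 and its fold change above 1.2, thresholds taken from the study's methods. The test differed, since the study used Student's t-test and limma's moderated test was used here. Benjamini-Hochberg adjustment ran over all tested genes. Read counts were tested with edgeR 4.0.16 and DESeq2 1.42.0 as alternatives, beside a pseudocount of 0.1, other filters, no quantile normalization, a replicate block, and each mouse left out. Relations across mice were tested by exact permutation. Scripts were tested on simulated data. Plots used matplotlib 3.10.9 (Python 3.11.15).

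The members and the gene lists were chosen with earlier results of these data known. Genes named are the members, listed genes called in any comparison, a set of textbook pathway genes, the 5 most and 3 least like Numb and the 3 most like Hes5. A gene that this rule selects is not reported here. Dtx3, Mib2, Dner, Ctbp2, Lfng, Siah1b and the neighbours of Numb were named after their values were seen. The labels do not say whether mice of a group shared a litter. Counts of 2 libraries differed by a chi-square per degree of freedom of at least 18.7, so all 9 were counted as separate libraries.

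Replicate numbers recur in all groups. Deviations from the group means of same-numbered mice correlated at -0.259 to 0.234, over 0.1 in 2 of 9 pairs. The main fits did not pair mice by number. With 3 mice per group, these correlations cannot tell whether same-numbered mice shared a litter or batch.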

Additional observations from a re-analysis of the deposited data

How the results depend on the processing

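Hes5 in both comparisons with CT and Hes1 in KO_ST against WT_ST met the criterion under every alternative tried. The other results moved as follows. The genes called in WT_ST against CT numbered 355, but 544 with a pseudocount of 0.1, 535 with edgeR under TMM or RLE scaling, 552 with DESeq2, and 277 to 544 with 1 mouse left out, the highest without CT replicate 3. In KO_ST against CT 512 were called, and 411 to 739 with 1 mouse left out. In KO_ST against WT_ST 287 were called, 445 with a pseudocount of 0.1, and 245 to 477 with 1 mouse left out, the highest without KO_ST replicate 3. Calls that were higher numbered 166 of 355 and 221 of 512 in the comparisons with CT, but 126 of 369 and 148 of 519 without quantile normalization and 177 of 535 in WT_ST against CT with edgeR. Without CT replicate 3 they numbered 323 of 544 and 342 of 638, and without CT replicate 1 in KO_ST against CT 379 of 739, while the median log2 fold change of all genes stayed within 0.02 of 0. Of the 74 tested list genes, 1 was called in WT_ST against CT, and 2 with a pseudocount of 0.1, 0 without quantile normalization, 3 with DESeq2 and 0 to 2 with 1 mouse left out. In KO_ST against CT 0 were called, and 0 to 1 with 1 mouse left out, the call arising without CT replicate 3. In KO_ST against WT_ST 1 was called, and 0 without quantile normalization, 2 with DESeq2 and 0 to 2 with 1 mouse left out. Hey2 lost its call without CT replicate 2, WT_ST replicate 1 or WT_ST replicate 2, and Nrarp came under 1.2-fold without WT_ST replicate 1 or 3 or KO_ST replicate 1 or 3. Members other than Numb called in KO_ST against CT numbered 1, but 2 with a pseudocount of 0.1 and 1 to 2 with 1 mouse left out, where Hes1 was added without CT replicate 1 or KO_ST replicate 3. For Numb the difference between KO_ST and WT_ST was -0.074 to 0.64 with 1 mouse left out, reversed without WT_ST replicate 3, and that between KO_ST and CT was 1.34 with a pseudocount of 0.1 and 1.36 with edgeR and DESeq2. In CPM the step in Numb took up 75.6% of its range. The causes of these shifts were not tested.

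With the replicate block, 399, 562 and 279 genes were called in the 3 comparisons, with 0, 2 and 4 at an adjusted p under 0.05 against 5, 9 and 22 without it, and 0 list genes in WT_ST against CT. Same-numbered mice correlated at a mean of -0.0101 and other pairs at 0.00494, which does not settle whether same-numbered mice shared a litter or batch.

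With 3 mice per group and adjustment over 14370 genes, 0 members other than Numb were called at an adjusted p under 0.05 by limma or edgeR, and 1 by DESeq2, which was Hes5 in KO_ST against CT. Genes at 1 FPKM, such as Jag1 and Dll1, rest on 166 to 365 reads, and a pseudocount of 1 compresses their fold changes.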
